A study of Mus musculus with 6 samples.

Results

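The immediate early genes are 10 genes taken by symbol from the deposited count table: Fos, Fosb, Jun, Junb, Egr1, Egr2, Ier2, Nr4a1, Atf3 and Zfp36. All 10 were found among its 55011 gene symbols. Whole visceral adipose tissue was sequenced from 30-week-old male C57BL/6 mice that ate low-fat chow for 14 weeks and high-fat chow for the next 16 weeks, and the fat was removed at zeitgeber time 0 h. Every mouse, controls included, carried the Foxp3 YFP-Cre allele, whose recombinase is made where Foxp3, the defining factor of regulatory T cells, is expressed. The 3 Bmal1WT libraries came from mice wild type for Bmal1 (gene Arntl, a transcription factor of the circadian clock), and the 3 Bmal1KO libraries from mice labelled knockout. The deletion is driven in Foxp3-expressing cells, while RNA came from the whole tissue.

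Immediate early genes are switched on within minutes of a stimulus such as a growth factor, a hormone, stretch or tissue damage, without the need for new protein synthesis. Signals through MAP kinases and cAMP reach serum response factor and CREB bound at their promoters, and the short-lived proteins then control a later wave of genes. Fos, Fosb, Jun, Junb and Atf3 encode leucine-zipper subunits of AP-1 and related dimers, Egr1 and Egr2 zinc-finger factors, Nr4a1 an orphan nuclear receptor, Ier2 a nuclear regulator, and Zfp36 the RNA-binding protein tristetraprolin, which speeds the decay of AU-rich mRNAs. These transcripts also respond quickly to the handling of tissue.

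Of the 10 genes, 8 had a window in the RefSeq promoter table (GRCm38.p6, the assembly of mm10), which spans 250 bases before to 50 bases after an annotated start. Egr1 and Ier2 had no window among those searched. Egr1 lies on a chromosome whose windows were left out, so whether RefSeq holds an entry for it was not checked. Both genes are absent from every motif count given here. Windows of 4 genes are shown as examples of different behaviour across the libraries described further on. Fos and Egr2 had their lowest value in 1 Bmal1KO library, as Jun, Junb, Egr1 and Atf3 did, while Zfp36 and Nr4a1 did not. Whether the sequences bear on this was not tested. The windows lie at chr12:85473640-85473939 (plus strand) for Fos, chr10:67537619-67537918 (plus strand, 1 of several Egr2 windows) for Egr2, chr7:28379179-28379478 (minus strand) for Zfp36 and chr15:101266596-101266895 (plus strand) for Nr4a1. Capitals mark matches to the motif TGACG, a part of the cAMP response element (CRE) that CREB and ATF factors bind, the TATA motif TATAAA, or the CArG box, the site of serum response factor, on either strand.
Fos: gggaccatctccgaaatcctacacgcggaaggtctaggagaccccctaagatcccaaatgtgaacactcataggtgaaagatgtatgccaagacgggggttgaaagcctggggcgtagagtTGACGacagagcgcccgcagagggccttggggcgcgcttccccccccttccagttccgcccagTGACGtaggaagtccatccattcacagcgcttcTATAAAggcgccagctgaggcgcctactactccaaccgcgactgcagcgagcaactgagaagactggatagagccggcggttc
Egr2: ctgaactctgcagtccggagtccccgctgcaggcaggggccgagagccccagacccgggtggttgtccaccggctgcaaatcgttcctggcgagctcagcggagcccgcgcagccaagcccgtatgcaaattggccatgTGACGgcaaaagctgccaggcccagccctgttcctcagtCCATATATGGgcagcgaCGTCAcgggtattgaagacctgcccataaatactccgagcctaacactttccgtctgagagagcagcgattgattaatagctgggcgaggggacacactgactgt
Zfp36: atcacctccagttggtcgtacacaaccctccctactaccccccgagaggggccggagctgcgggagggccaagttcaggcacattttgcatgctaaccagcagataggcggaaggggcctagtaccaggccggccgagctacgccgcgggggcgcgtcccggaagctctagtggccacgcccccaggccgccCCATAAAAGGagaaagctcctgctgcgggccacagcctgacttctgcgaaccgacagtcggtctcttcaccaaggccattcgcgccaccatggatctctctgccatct
Nr4a1: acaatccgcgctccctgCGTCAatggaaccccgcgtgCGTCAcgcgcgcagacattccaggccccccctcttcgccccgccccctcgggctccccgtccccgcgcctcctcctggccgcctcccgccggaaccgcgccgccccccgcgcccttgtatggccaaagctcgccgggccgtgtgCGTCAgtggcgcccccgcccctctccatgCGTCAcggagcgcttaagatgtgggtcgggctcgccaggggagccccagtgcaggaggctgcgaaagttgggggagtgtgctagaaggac

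The motif TGACG was present in windows of 6 of the 8 genes (Fos, Fosb, Junb, Egr2, Nr4a1 and Atf3). It was present for 23.1% of the 27025 genes with a window outside chromosome 18. The other motif shares of all genes given here are over the same 27025. In Fos it began at positions -129 and -66 from the annotated start, with TATAAA at -33. In Nr4a1 it occurred 4 times, from -233 to -40. A CArG box was found for Egr2 (at -72 in the window shown) and Zfp36 (at -58), against 1.81% of all genes. The E-box CACGTG, the motif that BMAL1 and its partner CLOCK bind, was found for 1 of the 8 genes, in another Egr2 window, against 8.09% of all genes. The full CRE TGACGTCA and the AP-1 site TGANTCA were in none of the windows of these 8 genes, against 2.03% and 8.97% of all genes. Each TGACGTCA match also holds TGACG. These matches describe letters in a short window and carry no measurement of binding.

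Totals ran from 6514620 to 9529198 counts per library. Bmal1KO replicate 1 was the shallowest library and had counts on 30019 genes, against 19009 to 20145 in the other 5. Its mitochondrial genes held 2.53% of counts, against 1.98% to 2.14% in Bmal1WT and 1.67% to 1.69% in the other Bmal1KO libraries. Bmal1WT replicate 1 carried 2451 counts on 12 epididymis and testis genes, against 0 to 17 in the others. The check of the targeted gene is weak in whole tissue: Arntl had 273, 242 and 373 counts in Bmal1WT and 324, 289 and 314 in Bmal1KO, and Foxp3 had 0 in Bmal1WT and 3, 0 and 2 in Bmal1KO. The defining fat cell transcripts were abundant, with 12 adipocyte markers summing to between 14532 and 32463 CPM (the usual normalised read count, relative to each library's total after scaling by edgeR's TMM method).

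No immediate early gene differed between Bmal1KO and Bmal1WT fat when p from edgeR's quasi-likelihood test was adjusted by the Benjamini-Hochberg method across the 13859 genes tested. The 9 members that passed the filter on low counts had adjusted p from 0.547 to 0.98, and 0 of 9 were past an unadjusted p of 0.05, against 9.31% of all genes. At the adjusted threshold of 0.05, edgeR called 0 genes of any kind, which is 0% of those tested, while 1290 had an unadjusted p under 0.05. The median log2 fold change of the 9 was 0.04, with 5 higher and 4 lower in Bmal1KO, beside 0.02 over all genes. The Bmal1WT and Bmal1KO ranges overlapped for all 9, whereas they did not overlap for 15.7% of all genes tested. DESeq2, which called 60 genes or 0.417% of those it tested, called 0 of the 9. The labels number the samples without saying that each is a separate animal, so these tests measure the spread between samples. In bulk tissue, fewer cells of a type and less RNA per cell cannot be told apart.

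In the summed members, the Bmal1KO libraries were spread widely around a narrow Bmal1WT group. The 10 genes summed to 517, 509 and 515 CPM in Bmal1WT replicates 1 to 3 and to 323, 580 and 672 CPM in Bmal1KO replicates 1 to 3. The Bmal1WT libraries were thus nearly equal, 1 Bmal1KO library lay below all of them and the other two lay above. In Bmal1KO replicate 1, 6 of the 9 tested genes were below every Bmal1WT library (27.8% of all genes were), and the same 6 had their lowest value of all libraries there (17.9% of all genes did). In Bmal1KO replicate 3, 7 of the 9 were above every Bmal1WT library (30.4% of all genes) and 6 had their highest value (17.8% of all genes). The standard deviation of log2 CPM was larger in Bmal1KO than in Bmal1WT for 7 of 9 genes, against 58.2% of all genes. Its median over the 9 was 0.14 in Bmal1WT and 0.52 in Bmal1KO, beside 0.28 and 0.35 over all genes. Not every member was narrow in Bmal1WT. Egr1 (0.50 against 0.45 in Bmal1KO) and Ier2 (0.42 against 0.35) had the larger value in Bmal1WT, and Nr4a1 was at 0.70 there.

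**Figure D1:**
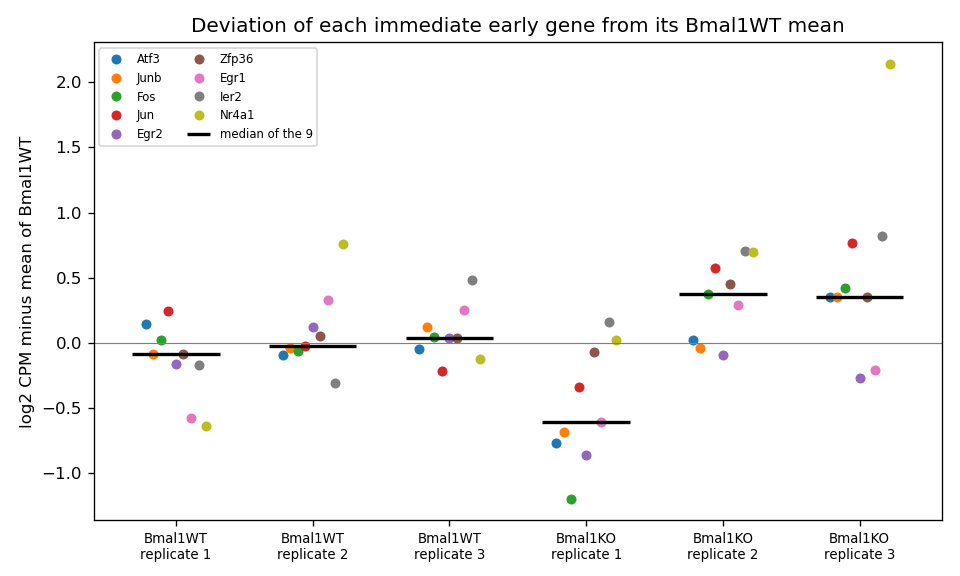
Difference of log2 CPM from the Bmal1WT mean (y axis) for the 9 tested immediate early genes (coloured points) in each of the 6 libraries (x axis), with black bars at the median of the 9. The medians lie between -0.09 and 0.04 in Bmal1WT, at -0.61 in Bmal1KO replicate 1, and at 0.38 and 0.35 in Bmal1KO replicates 2 and 3.

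Among the AP-1 genes, Fos (ENSMUSG00000021250.13, mm10 chromosome 12, 85473890 to 85477273, plus strand) showed the widest split. It had 530, 486 and 570 counts in Bmal1WT and 172, 683 and 643 in Bmal1KO, or 60.5, 56.9 and 61.3 CPM against 25.9, 77.3 and 79.8 CPM. The Bmal1WT values were within a few CPM of each other, Bmal1KO replicate 1 was at 0.434 of their mean, and Bmal1KO replicates 2 and 3 were above all of them. The means of 59.6 ± 2.32 CPM (SD, n = 3) and 61.0 ± 30.5 CPM (SD, n = 3) were therefore almost equal, with a log2 fold change of 0.04 (SE 0.32, edgeR adjusted p = 0.98).

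Jun (ENSMUSG00000052684.4, chromosome 4, 95049034 to 95052222, minus strand), the main dimer partner of FOS, was at 58.6, 48.5 and 42.4 CPM in Bmal1WT and 39.1, 73.7 and 84.2 CPM in Bmal1KO. Bmal1KO replicate 1 was again the lowest of the 6 and Bmal1KO replicates 2 and 3 the highest. The log2 fold change was 0.40 (SE 0.26, edgeR adjusted p = 0.657). Its single exon shares 232 bases with the antisense gene Junos, which had 1 to 13 counts per library.

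Junb (ENSMUSG00000052837.6, chromosome 8, 84974484 to 84978718, minus strand), an AP-1 subunit that can dampen JUN, was at 75.1, 77.8 and 87.0 CPM in Bmal1WT and 49.5, 77.7 and 101.7 CPM in Bmal1KO. One Bmal1KO library lay below, one inside and one above the Bmal1WT range (log2 fold change -0.07, SE 0.24, edgeR adjusted p = 0.948). The annotation overlaps exons of Prdx2 on the other strand over 173 bases, and Prdx2 had 2519 to 3655 counts, so part of the Junb count is uncertain in a library that does not mark strand.

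Atf3 (ENSMUSG00000026628.13, chromosome 1, 191170296 to 191218039, minus strand), a stress-induced repressor of the ATF and CREB family, had the most counts of the 10. It was at 219, 185 and 192 CPM in Bmal1WT and 116, 201 and 253 CPM in Bmal1KO. Again 1 Bmal1KO library was lowest and another highest, and the means of 199 ± 17.7 CPM (SD, n = 3) and 190.1 ± 69.2 CPM (SD, n = 3) differed by less than the spread (log2 fold change -0.06, SE 0.25, edgeR adjusted p = 0.952).

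Fosb (ENSMUSG00000003545.3, chromosome 7, 19302696 to 19310051, minus strand), the close relative of Fos, was barely detected. It had 0, 9 and 0 counts in Bmal1WT and 3, 10 and 1 in Bmal1KO, and it did not pass the filter. Each group held 1 library with 9 or 10 counts and others at or under the floor of 3 counts, so the depth could not show a difference between them.

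The EGR genes had the most negative log2 fold changes of the 9 tested members. Egr2 (ENSMUSG00000037868.15, chromosome 10, 67535475 to 67542188, plus strand) was at 42.3, 51.4 and 48.5 CPM in Bmal1WT and 25.9, 44.4 and 39.1 CPM in Bmal1KO. Bmal1KO replicates 1 and 3 were below all Bmal1WT libraries and Bmal1KO replicate 2 was among them (log2 fold change -0.38, SE 0.22, edgeR adjusted p = 0.615). Egr1 (ENSMUSG00000038418.7, chromosome 18, 34859823 to 34864984, plus strand) was at 17.7, 33.3 and 31.5 CPM in Bmal1WT and 17.3, 32.4 and 22.8 CPM in Bmal1KO. Its low values came from 1 library of each group, both numbered 1, and the groups covered nearly the same range (-0.18, SE 0.31, edgeR adjusted p = 0.873).

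Nr4a1 (ENSMUSG00000023034.7, chromosome 15, 101254269 to 101274795, plus strand) had the largest fold change of the members and the smallest p. It had 41, 108 and 63 counts in Bmal1WT and 50, 107 and 269 in Bmal1KO, or 4.68, 12.7 and 6.78 CPM against 7.52, 12.1 and 33.4 CPM. Bmal1KO replicate 3 alone stood above the Bmal1WT range, and the other two Bmal1KO libraries lay inside it. The log2 fold change was 1.14 (SE 0.54, unadjusted p = 0.0586, edgeR adjusted p = 0.547). Leaving out Bmal1KO replicate 3 brought it to 0.29 (edgeR adjusted p = 0.92).

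Ier2 (ENSMUSG00000053560.4, chromosome 8, 84661331 to 84662852, minus strand) was at 5.93, 5.39 and 9.47 CPM in Bmal1WT and 7.52, 11.1 and 12.0 CPM in Bmal1KO. Bmal1KO replicates 2 and 3 were above all Bmal1WT libraries and Bmal1KO replicate 1 among them (log2 fold change 0.56, SE 0.36, edgeR adjusted p = 0.65). Zfp36 (ENSMUSG00000044786.6, chromosome 7, 28376784 to 28380253, minus strand) was at 33.7, 37.0 and 36.6 CPM in Bmal1WT and 34.0, 48.9 and 45.5 CPM in Bmal1KO. It showed the same arrangement at a smaller size (log2 fold change 0.26, SE 0.20, edgeR adjusted p = 0.695) and had the lowest dispersion of the 9 genes, at percentile 17.9 of all genes tested, while Nr4a1 had the highest, at percentile 79.5.

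**Figure D2:**
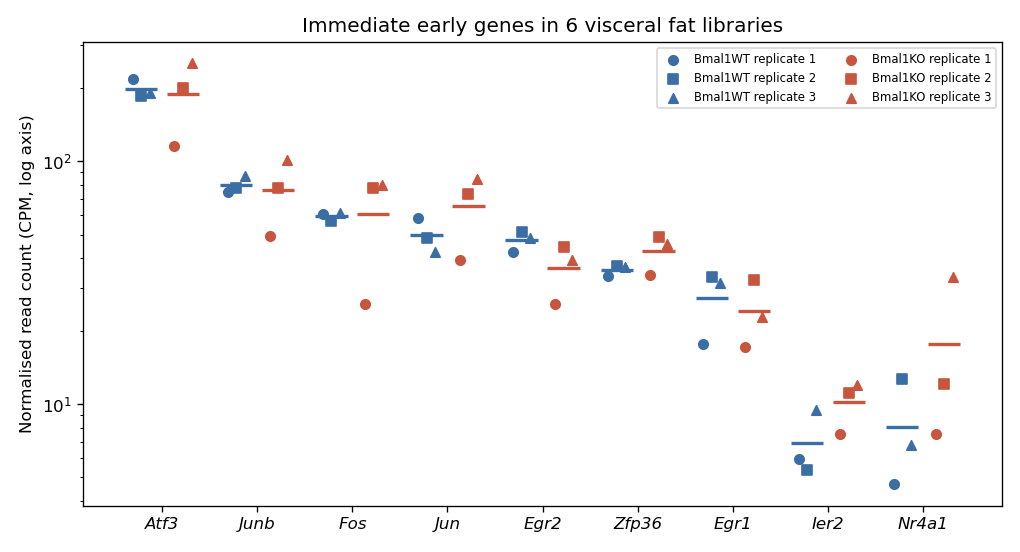
Normalised read count (CPM, log axis) of the 9 tested immediate early genes in each library, ordered by their level per kilobase, with Bmal1WT in blue, Bmal1KO in red, a symbol for each replicate number and a line at each group mean. Bmal1KO replicate 1 (red circle) is the lowest of 6 for 6 genes, while the ranges of both groups overlap for all 9.

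Per kilobase of exon, the level of the 10 genes ran from 90.2 CPM per kilobase for Atf3 to 0.0737 for Fosb (means over 6 libraries). Atf3 stood alone at the top: its lowest library, 53.8, was above the highest library of Junb, 44.2. Junb (34.0), Fos (25.6), Jun (18.1), Egr2 (12.3) and Zfp36 (11.3) followed, and each range overlapped that of the next. Zfp36, at 9.70 or more, was above Egr1 (5.76) in every library, with no overlap. Egr1, Ier2 (5.63) and Nr4a1 (3.66) overlapped each other in that order, and Fosb was below them all without overlap.

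The share of each gene within the summed counts of the 10 does not depend on how libraries are scaled. Atf3 held 38.6 ± 3.20% (SD, n = 3) in Bmal1WT and 36.1 ± 1.49% (SD, n = 3) in Bmal1KO, the largest share of the 10 in every library. Fos held 11.7%, 11.2% and 11.9% in Bmal1WT and 8.01%, 13.3% and 11.9% in Bmal1KO. In Bmal1KO replicate 1 Fos was thus lower, relative to Bmal1WT, than the summed members were. Jun held 11.3%, 9.52% and 8.23% in Bmal1WT and 12.1%, 12.7% and 12.5% in Bmal1KO, and Egr2 held 8.18%, 10.1% and 9.42% in Bmal1WT and 8.01%, 7.65% and 5.82% in Bmal1KO. The groups do not overlap for the shares of either gene, with Jun higher and Egr2 lower in Bmal1KO. For every other member the shares of the groups overlap, and no rate over all genes stands beside such shares. Both genes were picked for this after their values were seen, and the shares were not tested.

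Since Bmal1KO replicate 1 stood apart, the comparison is also given without it. That library was the lowest of the Bmal1KO libraries for each of the 9 tested genes. Leaving it out therefore raises their estimates by construction, and the shares of all genes beside them are no test of an excess. The median log2 fold change of the 9 genes was then 0.40 (beside 0.01 over all genes), with 8 higher and 1 lower, and edgeR called 0 of them, against 1.09% of all genes. An unadjusted p under 0.05 in the higher direction was reached by 3 of the 9, against 7.53% of all genes. These were Jun (log2 fold change 0.66, SE 0.19, adjusted p = 0.111), Nr4a1 (1.5, SE 0.48, adjusted p = 0.151) and Fos (0.40, SE 0.16, adjusted p = 0.255). The Bmal1KO values lay above all Bmal1WT values for 4 of the 9 and below them for 0, against 17.1% and 16.8% of all genes with these 5 libraries. With only Bmal1KO replicate 1 left out, Egr2 was at -0.19 (SE 0.19) and Egr1 at 0.0049 (SE 0.29). Without replicate 1 of both groups, 0 of the 9 were called, against 0.437% of all genes, and Egr2 and Egr1 were at -0.25 and -0.22. Leaving out Bmal1KO replicate 2 or 3 in place of replicate 1 gave medians of -0.09 and -0.15, so the direction of the median rests on which Bmal1KO libraries are present.

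**Figure D3:**
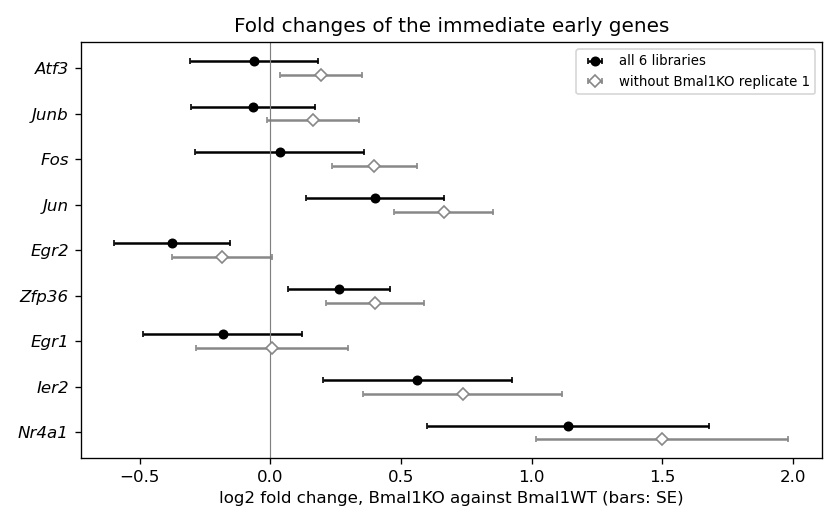
The log2 fold change of Bmal1KO against Bmal1WT (x axis, bars are SE from edgeR) for each of the 9 tested genes, with all 6 libraries (filled circles) and without Bmal1KO replicate 1 (open diamonds). Without that library, the lowest of the Bmal1KO libraries for each of the 9, every estimate moves to the right by construction. The estimate goes from 0.04 to 0.40 for Fos and from 0.40 to 0.66 for Jun. No gene passes the adjusted threshold in either case.

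In Bmal1KO replicate 1 the sums of 4 of the 6 lists of related genes were also below the Bmal1WT range, but by less. Relative to the Bmal1WT mean, they were at 0.819 (effectors), 0.880 (MAP kinase feedback), 0.927 (upstream kinases and factors) and 0.861 (heat shock). The members' sum was at 0.628 in that library. Summed CPM of 21 other primary response transcription factors was 431 there, inside the Bmal1WT range of 391 to 489, and that of 11 other AP-1 subunits was 212, inside 190 to 219. For 25 primary response effectors it was 781, below the Bmal1WT range of 849 to 1046, and for 14 MAP kinase feedback genes 325, below 360 to 375. For 23 upstream kinases and factors it was 734, below 762 to 825, and for 14 heat shock genes 3282.5, below 3520 to 4272. The MAP kinase feedback sum was also below its Bmal1WT range in Bmal1KO replicate 2, at 357. In all 6 lists of related genes, edgeR called 0 members over all genes.

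Of the other primary response transcription factors, 18 of 21 were tested, with 1 higher and 1 lower at an unadjusted p under 0.05 (5.05% and 4.26% of all genes) and a median log2 fold change of 0.13. Nfil3, a repressor of clock-controlled D-box genes, was at 14.3, 16.3 and 9.79 CPM in Bmal1WT and 6.62, 10.3 and 6.58 CPM in Bmal1KO (-0.77, SE 0.33, adjusted p = 0.515), with overlapping ranges. Klf6, a zinc-finger factor, was at 135, 163 and 152 CPM against 178, 204 and 189 CPM, with no overlap (0.34, SE 0.15, adjusted p = 0.523). Klf2, a zinc-finger factor known from endothelium and T cells, had no overlap either (0.55, SE 0.32, adjusted p = 0.614), and the antiproliferative gene Btg1 did overlap (0.42, SE 0.23, adjusted p = 0.601). Groups without overlap and higher in Bmal1KO were seen for 7.83% of all genes.

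Among 9 tested AP-1 subunits outside the members, 7 were higher and 2 lower by sign, with a median of 0.19. Past an unadjusted p of 0.05 was 1 of the 9, against 9.31% of all genes. That gene was Batf2, an interferon-induced leucine-zipper factor, at 2.62, 3.63 and 3.55 CPM in Bmal1WT and 4.81, 13.2 and 4.59 CPM in Bmal1KO (1.21, SE 0.51, adjusted p = 0.495). Its Bmal1KO mean was set mostly by replicate 2. Atf7 (0.32, SE 0.19, adjusted p = 0.613), Batf (0.52, SE 0.35, adjusted p = 0.659) and Fosl2, the FOS relative FRA2 (-0.33, SE 0.23, adjusted p = 0.668), had overlapping ranges.

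Of 23 tested primary response effectors, 12 were higher and 11 lower by sign, with a median of 0.07. At an unadjusted p under 0.05, 2 were higher and 1 lower, against 5.05% and 4.26% of all genes. Nfkbiz, an atypical inhibitor that steers NF-kB target genes, was at 6.73, 9.37 and 8.29 CPM in Bmal1WT and 16.1, 19.6 and 12.5 CPM in Bmal1KO (0.98, SE 0.30, adjusted p = 0.414), with every Bmal1KO library above every Bmal1WT library. The survival gene Mcl1 was at 59.4, 60.3 and 49.5 CPM against 62.6, 95.0 and 87.4 CPM, also without overlap (0.53, SE 0.19, adjusted p = 0.463). Of the 23, 5 were higher without overlap and 0 lower, against 7.83% and 7.85% of all genes. Ccl2, the monocyte chemokine, was at 163, 346 and 258 CPM against 174, 132 and 165 CPM (-0.71, SE 0.25, adjusted p = 0.446), and the clock gene Per1 at 11.6, 10.1 and 15.4 CPM against 25.6, 13.2 and 20.5 CPM (0.67, SE 0.31, adjusted p = 0.535). Both had overlapping ranges, and Per1 was highest in Bmal1KO replicate 1, the library in which most of the members were lowest.

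The MAP kinase feedback list, whose products shut off the kinases that induce immediate early genes, had 13 of 14 genes tested. Of these, 7 were higher and 6 lower by sign, with a median of 0.13. An unadjusted p under 0.05 was reached by 1 higher and 2 lower, against 5.05% and 4.26% of all genes. Errfi1, which inhibits the EGF receptor, was at 12.8, 28.6 and 18.4 CPM in Bmal1WT and 47.2, 32.4 and 46.2 CPM in Bmal1KO (1.07, SE 0.30, adjusted p = 0.414). The phosphatase Dusp4 was at 13.0, 14.6 and 14.4 CPM against 6.17, 4.30 and 9.68 CPM (-1.06, SE 0.35, adjusted p = 0.427), and Dusp10 had a log2 fold change of -0.40 (SE 0.18, adjusted p = 0.523). The groups did not overlap for these 3, Errfi1 being higher and both phosphatases lower, the latter in 7.85% of all genes. The RAS pathway inhibitor Spred1 overlapped (0.60, SE 0.28, adjusted p = 0.536). The upstream kinases and factors had 23 genes tested, 0 of them past an unadjusted p of 0.05 (9.31% of all genes were), with a median of 0.07. Crem (-0.37, SE 0.20, adjusted p = 0.598), a cAMP-responsive factor, and Elk3 (-0.61, SE 0.35, adjusted p = 0.609), a partner of serum response factor, were lower without overlap. Of the 23, 2 were lower without overlap and 0 higher, against 7.85% and 7.83% of all genes. The stress kinase Mapk8 (0.84, SE 0.48, adjusted p = 0.612) and the serum response factor coactivator Mrtfa (0.37, SE 0.24, adjusted p = 0.656) overlapped.

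Heat shock genes, which also respond to the handling of tissue, had 5 members higher and 8 lower by sign among 13 tested, with a median of -0.11. At an unadjusted p under 0.05, 0 were higher and 2 lower, against 5.05% and 4.26% of all genes. The small heat shock protein Hspb1 was at 105, 76.4 and 69.7 CPM in Bmal1WT and 53.2, 58.2 and 60.8 CPM in Bmal1KO (-0.54, SE 0.19, adjusted p = 0.446). The lens and muscle chaperone Cryab was at 386, 317 and 306 CPM against 288, 217 and 142 CPM (-0.64, SE 0.24, adjusted p = 0.468), and neither overlapped. Of the 13, 2 were lower without overlap and 0 higher, against 7.85% and 7.83% of all genes. Dnaja1 (-0.20, SE 0.18, adjusted p = 0.75) and Hspd1 (-0.16, SE 0.15, adjusted p = 0.753) had overlapping ranges.

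Marker levels of several cell types moved across the same libraries. The 11 macrophage markers, all detected, summed to 8689 to 13039 CPM in Bmal1WT and to 8647, 15523 and 18376 CPM in Bmal1KO replicates 1 to 3. As with the immediate early sum, Bmal1KO replicate 1 was lowest and Bmal1KO replicates 2 and 3 highest. The Bmal1WT libraries, nearly equal in the immediate early sum, were spread in the macrophage sum, with replicate 3 close to Bmal1KO replicate 1. Lyz2 had the most counts of these markers in every library and weighs most in the sum. Over the 11 markers, the median difference of log2 CPM from the Bmal1WT mean was 0.23, 0.07 and -0.30 in Bmal1WT. It was -0.35, 0.58 and 0.64 in Bmal1KO. Single markers, such as Csf1r, did not all follow this order. The sum of the 12 adipocyte markers ran the other way, at 25358 to 30292 CPM in Bmal1WT and 32463, 18456 and 14532 CPM in Bmal1KO. Not each of the 12 did so: in Bmal1KO replicate 1, Pparg and Aqp7 were below every Bmal1WT library in CPM. The 12 endothelial markers were at 480 to 1015 CPM in Bmal1WT and 553, 337 and 375 CPM in Bmal1KO, the 10 mural markers at 535 to 587 against 363 to 490 CPM, and the 10 stromal progenitor markers at 5033 to 7606 against 5129 to 7297 CPM. The 12 T cell markers were at 21.7 to 77.1 against 96.4 to 249 CPM and the 8 mast cell markers at 74.0 to 157 against 262 to 409 CPM. The 8 B cell markers were at 30.6 to 60.9 CPM in Bmal1WT and 59.8, 36.4 and 339 CPM in Bmal1KO. Only Bmal1KO replicate 3 was thus above the Bmal1WT range of the B cell sum. The 10 mesothelial markers were at 238 to 487 against 496 to 578 CPM and the 8 neutrophil markers at 40.2 to 83.4 against 35.6 to 61.5 CPM. Among the defining markers, Foxp3 was at 0 in all 3 Bmal1WT libraries and in Bmal1KO replicate 2, and Ly6g, of neutrophils, at 0 in 5 of 6 libraries. The part of these cell types, of depth or of RNA quality in the levels of the immediate early genes was not tested.

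**Figure D4:**
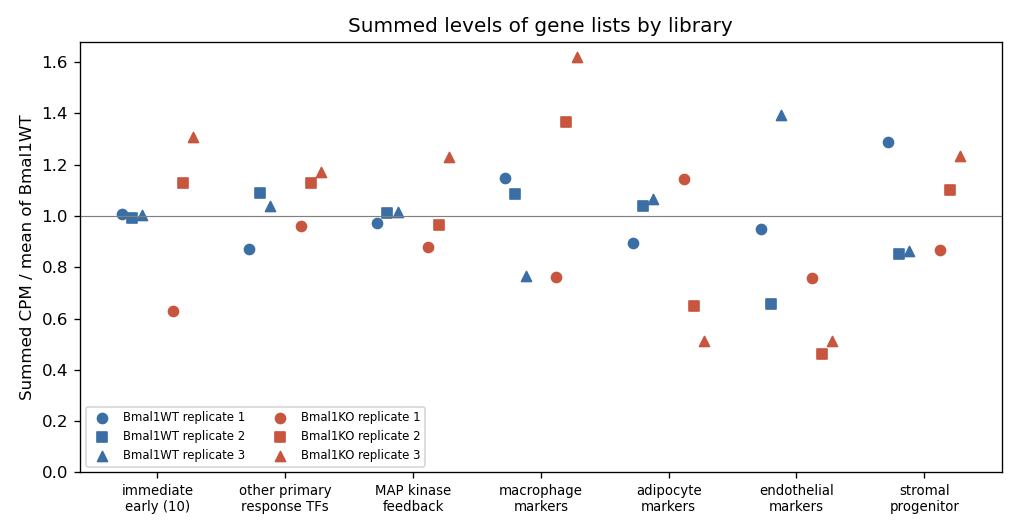
Summed CPM of gene lists divided by the Bmal1WT mean (y axis, from 0) in each library, with Bmal1WT in blue, Bmal1KO in red and a symbol for each replicate number. The immediate early sum is 0.991 to 1.01 in Bmal1WT and 0.628, 1.13 and 1.31 in Bmal1KO replicates 1 to 3, while the macrophage sum is 0.762, 1.37 and 1.62 and the adipocyte sum 1.14, 0.65 and 0.512 in the same Bmal1KO libraries.

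Genes outside the members whose profile over the 6 libraries was closest to the mean profile of the 9 were found by root mean square distance of centred log2 CPM among 8823 genes with at least 10 CPM. They were Nckap1l (distance 0.0547), the blood-cell subunit of the actin-regulating WAVE complex, Jak3 (0.0547), the kinase of the common cytokine receptor chain, Myd88 (0.0611), the adaptor of Toll-like receptors, Rpusd4 (0.0745), a mitochondrial pseudouridine synthase, and Rnf41 (0.0831), a ubiquitin ligase. Nckap1l was at 155, 165 and 164 CPM in Bmal1WT and 122, 204 and 232 CPM in Bmal1KO. The members, which were not searched for closeness, lay at distances from 0.151 for Junb to 0.671 for Nr4a1 from their own mean. The named genes are the closest of 8823, so their smaller distances follow from the search. In all, 120 of the 8823 genes were closer to that mean than Junb was, and 8106 were closer than Nr4a1.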

How the data were processed

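RNA of whole visceral fat was sequenced in 3 Bmal1WT and 3 Bmal1KO samples. Per the labels' protocols, 2 ng of RNA was primed with oligo(dT), amplified and cut with the Nextera XT kit, and read as pairs of 38 bp. Such libraries carry no strand and no molecular identifiers. Deposited values were whole-number counts for each gene symbol, which the authors made with STAR 2.7.3a and featureCounts on mm10, per the submitters' processing notes. Of their annotation and of multiply mapped reads, nothing is stated in the labels.

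Groups and replicate numbers came from the titles. Counts were tested with edgeR 4.0.16 (R 4.3.3): filterByExpr, TMM scaling, quasi-likelihood F-test with robust dispersion, no covariate, Benjamini-Hochberg adjustment over 13859 genes, threshold 0.05. The SE is the coefficient divided by the square root of F. Fits were checked on simulated data in which genes varied independently and no library was set apart in its profile. That check does not cover a library that stands apart, as Bmal1KO replicate 1 did. A floor of 3 counts corresponds to 0.323 to 0.451 CPM and covers counting error only. Replicates differed well beyond sampling noise (chi-square per degree of freedom 14.8 to 46.4). Coordinates and exon lengths are from GENCODE M21, promoters from RefSeq (GRCm38.p6) without chromosome 18, which carries Egr1.

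The members and the 18 gene lists (231 entries, all matched) were chosen with earlier results of these data known. The text names all members, Arntl, Foxp3, the 4 tested genes of smallest p in each of 6 pathway lists and the 5 genes closest in profile. Alternatives used other scaling, filters, DESeq2 1.42.0, limma 3.58.1 voom, a replicate block and left-out libraries.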

Additional observations from a re-analysis of the deposited data

How the results depend on the processing

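Under 14 alternatives, 0 of the 9 immediate early genes was called in any. Jun, Ier2, Nr4a1 and Zfp36 stayed higher and Egr2 lower in Bmal1KO in all 14, with log2 fold changes of 0.18 to 0.80, 0.41 to 0.86, 0.29 to 1.63, 0.15 to 0.40 and -0.55 to -0.19. The other 4 genes, near 0, changed sign in places. With library size alone, which moved the median of all genes to 0.11, Junb was at 0.029 and Atf3 at 0.035, below that median, and 7 of the 9 were higher in place of 5. With 1 library left out, or replicate 1 of both groups, Fos ran from -0.21 (without Bmal1KO replicate 3; -0.18 without Bmal1KO replicate 2) to 0.42, Junb from -0.33 to 0.16, Atf3 from -0.33 to 0.28 and Egr1 from -0.46 to 0.0049. Junb was at 0.0057 without Bmal1WT replicate 3, 0.16 without Bmal1KO replicate 1 and 0.13 without replicate 1 of both groups, and Atf3 at 0.02 without Bmal1WT replicate 1, 0.19 without Bmal1KO replicate 1 and 0.28 without replicate 1 of both groups. The median of the 9 ran from -0.15 to 0.40. Members with no overlap between groups numbered 0 with all libraries under each scaling. Without Bmal1KO replicate 1 they numbered 4 higher and 0 lower, and without replicate 1 of both groups 5 higher and 1 lower. With another library left out they numbered 0 or 1, and no share of all genes stands beside those counts. Fewer libraries make overlap less likely: groups did not overlap, higher or lower, for 23.5% and 22.8% of all genes without replicate 1 of both groups.

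The number of genes called of all kinds was 0, with 1290 at an unadjusted p under 0.05. It was 186 without a filter on low counts, 60 with DESeq2, 0 with limma voom (1683 at an unadjusted p under 0.05), and 0 to 156 with 1 library left out: 156 without Bmal1KO replicate 1, 6 without Bmal1KO replicate 2, 1 without Bmal1WT replicate 1, and 61 without replicate 1 of both groups, 0.437% of the genes tested there. The cause was not tested. With the replicate number as a block, 0 genes were called and Fos was at -0.11. Same-numbered samples deviated from their group means with correlations of -0.07, 0.09 and -0.03, and not every sample correlated best with its own number. With 3 libraries per group, these correlations cannot show whether same-numbered samples shared anything beyond the number. Depth limits Fosb most.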
